A study of Mus musculus with 28 samples.

Results

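The glucocorticoid-induced genes examined in these arrays were Tsc22d3, Ddit4, Nfkbia, Hif3a, Sgk1, Fkbp5, Zbtb16, Mt1 and Mt2, along with Nr3c1, the gene of the glucocorticoid receptor. They were chosen by name: each gene was read from the array row whose annotation gives that symbol and no other. All 10 genes were measured, each by 1 row, among 19938 named genes in the hippocampus of wild-type and cbp+/- mice.

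Glucocorticoids, chiefly corticosterone in mice, are released by the adrenal gland during stress and pass into the brain. They bind the glucocorticoid receptor in the cytoplasm, which then enters the nucleus, binds DNA at palindromic response elements and raises or lowers transcription of nearby genes. The hippocampus is rich in this receptor and in the related mineralocorticoid receptor, Nr3c2. Handling, an injection and an unfamiliar environment are common laboratory stressors that raise corticosterone in mice. No hormone level was part of the data analysed here.

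The mice were female C57/DBA F1 hybrids of 3 months, wild type or cbp+/-. The cbp+/- littermates had 1 of their copies of Crebbp, which encodes the coactivator CBP, disrupted. For each genotype there were 2 arrays from uninjected (naive) mice in standard cages and 3 arrays from mice injected with the DMSO/saline vehicle in standard cages. A further 3 arrays per genotype came from mice given trichostatin A (TSA, an inhibitor of histone deacetylases) at 2.4 mg/kg in standard cages. Another 3 came from vehicle-injected mice exposed to novelty, an unfamiliar box with tubing and toys, for 1 h, and 3 from mice given TSA and then, 15 min later, novelty. Tissue was taken 75 min after TSA. For each array the RNA of 3 to 4 mice was pooled (4 in the extraction protocol). Every p-value below therefore measures the spread between arrays of pooled RNA, not between single mice. The controls also served a study run in parallel, and the vehicle arrays enter the comparisons with naive mice, novelty and TSA alike, which therefore share samples.

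All levels are log2 values, on which a difference of 1 is a 2-fold ratio, and array medians ran from 5.46 to 5.63. The level of hippocampal neuron markers averaged over 9 of 10 listed genes lay between 9.43 and 9.88 in every array. The values split the injected arrays into sets 2, 3 and 4, which no label names. The naive arrays were put in set 1 by their condition. Set membership accounted for 95.6% of the first principal component, itself 34.5% of the variance. The 4 naive arrays made up set 1, and every injected group had 1 array in each of sets 2, 3 and 4. Array set and absence of an injection therefore cannot be told apart, whereas novelty, TSA and genotype could be compared within sets. In a fit without a block for array set, the spread behind a p-value includes differences between sets. In set 2 the choroid plexus markers stood 1.40 to 1.81 above their median over arrays in 3 arrays, namely cbp+/- vehicle replicate 3, cbp+/- TSA replicate 1 and wild-type novelty with TSA replicate 1.

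Promoter windows from RefSeq (GRCm38.p6), each 250 bases before to 50 bases after a transcription start, were held for 8 of the 10 genes, 15 windows in all. Zbtb16 and Nr3c1 had none. They were searched on both strands for the full palindromic glucocorticoid response element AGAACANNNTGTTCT, for its half-site AGAACA, which the full element contains on each strand, and for the metal response element core, TGCACNC or TGCGCNC. The full element was found in 3 of 32851 windows, a share of 0.00913%, and 1 of these was a window of Sgk1. The half-site was found in 19.0% of all windows and in 4 windows of these genes, of Sgk1 and Tsc22d3. The metal core was found in 25.7% of all windows, and in 6 of the 15 windows of these genes, 1 each of Mt1, Mt2, Ddit4, Hif3a, Nfkbia and Sgk1. The Mt2 window held 4 matches and the Mt1 window 3. The Sgk1 window with the full element and the windows of Mt1 and Mt2, the genes with the most metal cores, are shown up to 30 bases past the start. Capitals mark the matches to the glucocorticoid motifs in Sgk1 and to the metal core in Mt1 and Mt2. A match is only a description of the letters and no binding was measured.
Sgk1, chr10:21993640-21993919, + strand: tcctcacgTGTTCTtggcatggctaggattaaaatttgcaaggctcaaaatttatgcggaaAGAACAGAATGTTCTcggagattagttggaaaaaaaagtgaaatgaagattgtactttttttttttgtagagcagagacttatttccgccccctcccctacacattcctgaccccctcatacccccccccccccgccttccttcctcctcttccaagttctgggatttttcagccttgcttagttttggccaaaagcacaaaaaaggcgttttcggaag
Mt1, chr8:94178839-94179118, + strand: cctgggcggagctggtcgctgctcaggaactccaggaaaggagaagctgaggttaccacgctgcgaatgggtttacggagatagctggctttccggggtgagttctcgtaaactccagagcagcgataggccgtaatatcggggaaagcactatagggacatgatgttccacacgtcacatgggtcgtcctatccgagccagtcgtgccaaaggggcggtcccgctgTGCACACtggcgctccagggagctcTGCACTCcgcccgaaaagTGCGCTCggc
Mt2, chr8:94172368-94172647, + strand: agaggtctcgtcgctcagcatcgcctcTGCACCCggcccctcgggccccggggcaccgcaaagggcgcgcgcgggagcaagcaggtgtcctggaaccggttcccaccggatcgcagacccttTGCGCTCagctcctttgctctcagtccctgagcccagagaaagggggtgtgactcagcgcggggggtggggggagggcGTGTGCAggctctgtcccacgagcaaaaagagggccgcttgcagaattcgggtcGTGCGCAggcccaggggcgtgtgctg

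**Figure D1:**
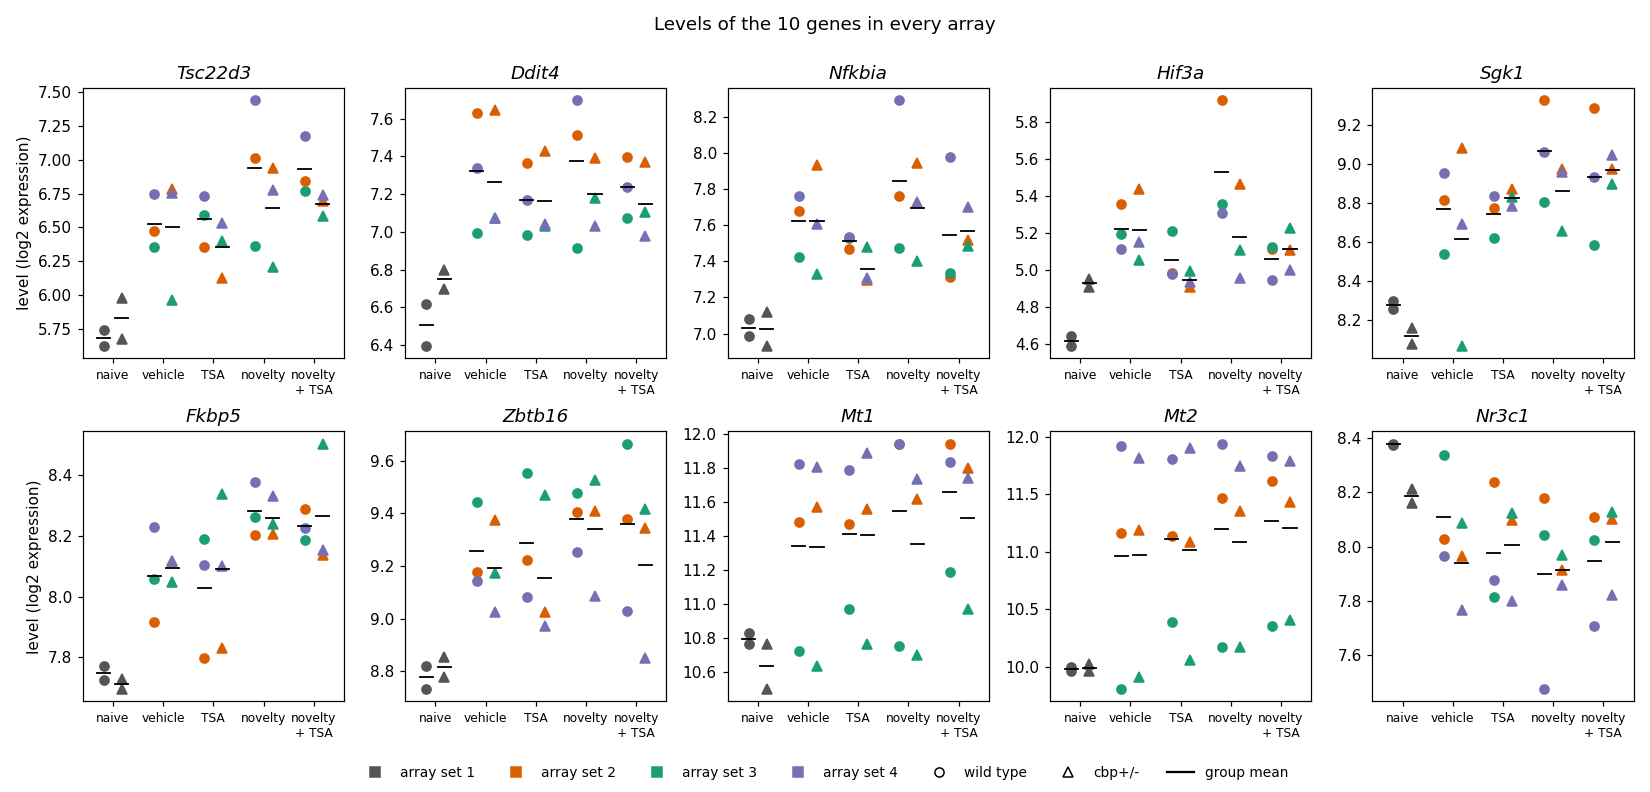
Log2 level of each of the 10 genes (1 panel each, vertical axes differ) in all 28 arrays, by condition, with circles for wild type, triangles for cbp+/-, colour for array set and a short line for the group mean. Of the 9 induced genes each has its lowest group means in the naive arrays, and for Mt1 and Mt2 the colours separate more than the conditions do.

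Across the 10 groups the glucocorticoid-induced genes shared their lowest groups, while the order of the others differed from gene to gene. For each of the 9 induced genes both naive groups were the lowest of the 10 group means, as they were for 16.6% of all genes. For 7 of them, all but Mt1 and Mt2, wild-type novelty with vehicle was the highest, as it was for 6.7% of all genes. For Tsc22d3 the group means ran from 5.69 ± 0.08 (SD, n = 2) in wild-type naive arrays to 6.94 ± 0.54 (n = 3) in wild-type novelty arrays. For Fkbp5 they ran from 7.71 ± 0.02 (n = 2) in cbp+/- naive arrays to 8.28 ± 0.09 (n = 3) in wild-type novelty arrays. Nr3c1 lay the other way round, lowest in wild-type novelty at 7.90 ± 0.37 (n = 3) and highest in wild-type naive arrays at 8.38 ± 0.00 (n = 2). Most neighbours in these orders did not differ beyond their spread: of the 9 gaps between neighbouring group means, the number larger than the larger of the 2 SDs was 3 for Fkbp5, 2 each for Tsc22d3, Ddit4 and Nfkbia, 1 each for Hif3a, Sgk1, Zbtb16 and Nr3c1, and 0 for Mt1 and Mt2.

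The first comparison asks what an injection of vehicle went with, against no injection. Tsc22d3, Ddit4, Nfkbia and Hif3a were higher after vehicle, by 1.36-fold to 1.69-fold, in the fit without a block. Tsc22d3, which encodes the leucine zipper protein GILZ, an anti-inflammatory mediator, stood at 5.74 and 5.63 in the wild-type naive arrays and at 5.98 and 5.68 in the cbp+/- naive arrays. After vehicle it stood at 6.48, 6.35 and 6.75 in wild type and at 6.78, 5.97 and 6.76 in cbp+/- mice. Of the 6 vehicle arrays 5 lay above every naive array, and cbp+/- vehicle replicate 4 lay level with the highest naive array. The difference averaged over genotypes was 0.76 ± 0.19 (SE, 6 against 4 arrays), a 1.69-fold ratio, with an adjusted p of 0.032 (limma, Benjamini-Hochberg). Nfkbia, which encodes the inhibitor that holds NF-kappaB in the cytoplasm, stood at 7.08 and 6.98 in wild-type naive and at 7.12 and 6.93 in cbp+/- naive arrays. Its vehicle arrays stood at 7.68, 7.42 and 7.76 in wild type and at 7.93, 7.33 and 7.61 in cbp+/- mice, with no overlap. Its difference was 0.59 ± 0.15 (adjusted p = 0.039).

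Among the stress-response genes, Ddit4, which encodes REDD1, an inhibitor of the growth-promoting kinase complex mTORC1, stood at 6.62 and 6.40 in wild-type naive and at 6.80 and 6.70 in cbp+/- naive arrays. After vehicle its level was 7.63, 6.996 and 7.34 in wild type and 7.64, 7.07 and 7.07 in cbp+/- mice. All vehicle arrays lay above all naive arrays, and the difference was 0.66 ± 0.16, a 1.58-fold ratio (limma, adjusted p = 0.023). Hif3a, a hypoxia-inducible factor subunit with splice forms that restrain the other family members, stood at 4.64 and 4.59 in wild-type naive, 4.95 and 4.91 in cbp+/- naive, 5.36, 5.19 and 5.11 in wild-type vehicle and 5.44, 5.05 and 5.15 in cbp+/- vehicle arrays. These groups did not overlap either, and the difference was 0.45 ± 0.11 (adjusted p = 0.038). Sgk1, a kinase that acts on ion channels and transporters, was between 8.08 and 8.30 in the naive arrays and had a lowest, median and highest vehicle level of 8.07, 8.75 and 9.08. Here cbp+/- vehicle replicate 4 was as low as the naive arrays, and the difference of 0.49 ± 0.15 did not pass the threshold (adjusted p = 0.089).

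Fkbp5, the Hsp90 co-chaperone that lowers the receptor's affinity for hormone and so forms a short feedback loop, was between 7.69 and 7.77 in the naive arrays and between 7.92 and 8.23 in the vehicle arrays. Zbtb16, a zinc-finger transcription factor, was between 8.73 and 8.85 in the naive arrays and between 9.03 and 9.44 in the vehicle arrays. Neither gene overlapped between these conditions, yet neither difference passed the threshold, at 0.35 ± 0.10 for Fkbp5 (limma, adjusted p = 0.055) and 0.43 ± 0.14 for Zbtb16 (adjusted p = 0.113). Nr3c1 stood at 8.37 and 8.38 in wild-type naive and at 8.21 and 8.16 in cbp+/- naive arrays, against 8.03, 8.34 and 7.96 in wild-type vehicle and 7.97, 8.09 and 7.77 in cbp+/- vehicle arrays. The receptor gene was thus the single one of the 10 with a negative difference, at -0.26 ± 0.13 (adjusted p = 0.366), and its conditions overlapped.

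In counts, 4 of the 10 genes (Tsc22d3, Ddit4, Nfkbia and Hif3a) rose with vehicle in limma, against 2.41% of all genes tested called in either direction with 1.08% called higher and 1.32% lower. The median difference was 0.54 over the 10 genes and 0.01 over all genes. All 6 vehicle arrays lay above all 4 naive arrays for 5 of the 10 (Ddit4, Nfkbia, Hif3a, Fkbp5 and Zbtb16), against 4.07% of all genes in that direction. All 24 injected arrays lay above the 4 naive arrays for 3 of the 10, Ddit4, Nfkbia and Fkbp5, against 1.29% of all genes. Within 1 genotype, 3 against 2 arrays, limma called 0 of the 10 in wild type, where 0.391% of all genes were called, and 0 in cbp+/- mice, where 0% were.

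These calls rested on few arrays. With array set as a random block, which treats the naive arrays as a set of their own (within-set correlation 0.49), 0 of the 10 were called. Their adjusted p (limma) lay between 0.421 and 0.956, and this fit called 2 of all 19938 genes. Without the 3 arrays high in choroid plexus markers, 0 of the 10 were called, against 236 of all 19938 genes. The differences were then 0.69 for Tsc22d3, 0.57 for Ddit4, 0.52 for Nfkbia and 0.39 for Hif3a. Of those 3 arrays only cbp+/- vehicle replicate 3 enters this comparison. The others, given TSA, enter only the shared estimate of the spread. The number of the 10 called was likewise 0 when any 1 of these arrays was left out: naive replicate 1 or 2 of either genotype, or vehicle replicate 3 of either genotype. It was 1 without cbp+/- vehicle replicate 5, 2 without wild-type vehicle replicate 5, 3 without wild-type vehicle replicate 4 and 5 without cbp+/- vehicle replicate 4. Counts over all genes with single arrays left out are given as a range in the closing section. When single arrays were left out the 9 induced genes kept positive differences and Nr3c1 a negative one.

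**Figure D2:**
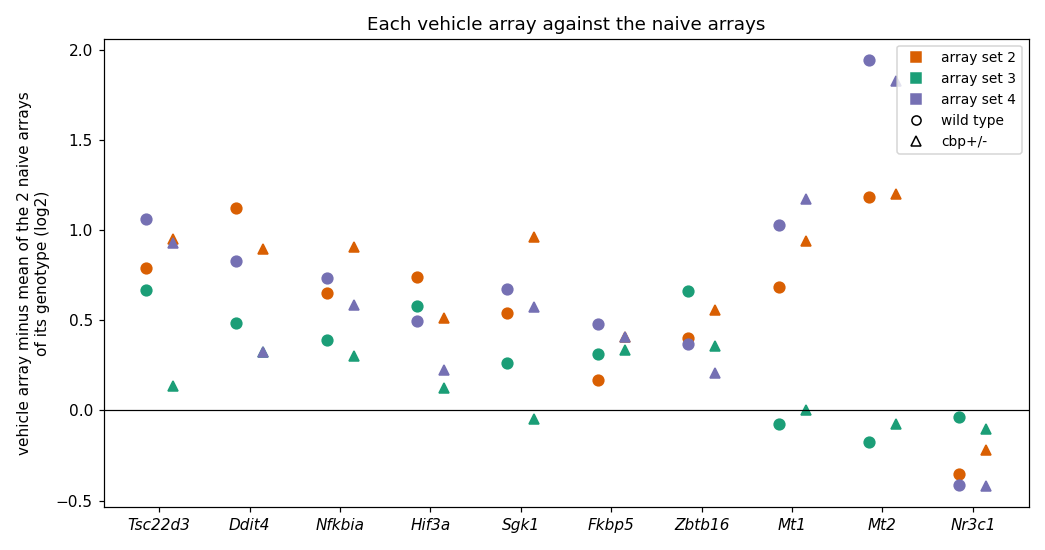
Each vehicle array minus the mean of the 2 naive arrays of its genotype (log2, vertical axis) for the 10 genes, with circles for wild type, triangles for cbp+/- and colour for array set. The values of Mt1 and Mt2 in set 3 lie between -0.17 and 0.00, against 0.69 to 1.94 in sets 2 and 4.

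The metallothioneins Mt1 and Mt2, small proteins that bind zinc and copper and whose genes respond both to metals and to glucocorticoids, had large but uneven differences between vehicle and naive arrays. The Mt2 level was 9.998 and 9.96 in wild-type naive and 9.96 and 10.02 in cbp+/- naive arrays. In vehicle replicates 3, 4 and 5 it was 11.16, 9.81 and 11.92 in wild type and 11.19, 9.92 and 11.82 in cbp+/- mice. In both genotypes vehicle replicate 4, the array of set 3, was no higher than the naive arrays, while the other 2 were at least 1.18 higher. The averaged differences were 0.98 ± 0.49 for Mt2 and 0.63 ± 0.31 for Mt1, neither past the threshold in limma (adjusted p = 0.367 and 0.362). Over the 24 injected arrays, array set accounted for 94.9% of the variance of Mt2 and 89.2% of that of Mt1, against 38.6% for the median gene. The mean Mt2 level in sets 1, 2, 3 and 4 was 9.99, 11.31, 10.16 and 11.84, and that of Mt1 was 10.71, 11.67, 10.84 and 11.82. Set 3 thus lay near the naive set for both genes although all its mice had been injected. Mt3, the brain metallothionein, had means of 10.12, 11.15, 10.29 and 10.57, with set 2 rather than set 4 the highest. Array set accounted for less of the variance of the other members, from 19.1% for Hif3a and 21.2% for Fkbp5 to 58.0% for Ddit4 and 64.8% for Zbtb16. What differs between the sets is not given by the labels and was not tested.

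Markers of cell types were compared between vehicle and naive arrays in the same way. Of 7 measured endothelial markers 5 had negative differences (median -0.35), and Tek, a receptor of blood vessel cells, fell by 0.50 ± 0.11 (limma, adjusted p = 0.014), a call lost with the random block (adjusted p = 0.506). Their mean level was 7.18 to 7.26 in wild-type naive and 7.16 to 7.24 in cbp+/- naive arrays, against 6.72 to 7.13 in wild-type vehicle and 6.96 to 7.04 in cbp+/- vehicle arrays. Of 8 astrocyte markers 6 had negative differences (median -0.25), 0 passed the threshold, and their mean level was 9.09 to 9.10 in wild-type naive, 8.93 to 8.96 in cbp+/- naive, 8.63 to 8.98 in wild-type vehicle and 8.60 to 9.06 in cbp+/- vehicle arrays. Of 7 oligodendrocyte markers all 7 had positive differences (median 0.27), as had 52.5% of all genes, and 0 passed. The mean level of 9 hippocampal neuron markers was 9.518 to 9.522 in wild-type naive and 9.44 to 9.48 in cbp+/- naive arrays. In vehicle arrays it was 9.515 to 9.743 in wild type and 9.52 to 9.77 in cbp+/- mice. With the random block Wfs1 differed by 0.53, Spink8 by 0.59 and Gad1 by -0.27 (limma, adjusted p = 0.566, 0.814 and 0.771). Of 7 measured microglia markers, those named for the smallest p were C1qa, Tmem119 and Cx3cr1. C1qa differed by 0.70 ± 0.24 with the random block (limma, adjusted p = 0.492), Tmem119 by 0.35 and Cx3cr1 by -0.18. The mean level of all 7 was 6.81 to 6.82 in wild-type naive and 6.74 to 6.76 in cbp+/- naive arrays. In vehicle arrays it was 6.79 to 6.85 in wild type and 6.85 to 7.11 in cbp+/- mice. Of 8 measured meningeal markers, those named for the smallest p, Ogn, Dcn and Lum, differed by -0.21, -0.33 and -0.20. The mean level of all 8 was 6.19 to 6.41 in wild-type naive and 6.29 to 6.35 in cbp+/- naive arrays. In vehicle arrays it was 6.15 to 6.29 in wild type and 6.08 to 6.38 in cbp+/- mice, so the conditions overlapped. The glucocorticoid-induced genes are expressed in several of these cell types, the part of such shifts in their differences was not tested, and in tissue RNA fewer cells of a type and less RNA per cell cannot be told apart.

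Of all genes, 52.5% had a positive difference between vehicle and naive arrays. Of 28 measured genes outside the members that are known to respond to glucocorticoids, 22 had positive differences, with a median of 0.18, and 1 passed the threshold. This was Klf15, a transcription factor of amino acid and lipid metabolism, which rose by 0.41 ± 0.10 (limma, adjusted p = 0.025; with the random block 0.589). Plin4, a lipid droplet protein, had a difference of 0.47 ± 0.13 (adjusted p = 0.055). Of 14 measured genes of the receptor's chaperones and cofactors 0 passed; Hsp90aa1, the chaperone that holds the receptor ready for hormone, had a difference of -0.25 ± 0.07 (adjusted p = 0.081), and Nr3c2, the mineralocorticoid receptor, -0.23 ± 0.11 (adjusted p = 0.323). Of 12 NF-kappaB pathway genes 0 passed (median -0.04), and of 12 hypoxia-regulated genes 0 passed (median -0.01). Among the latter, Slc2a1 had a difference of 0.86, Adm of 0.27 and Vegfa of -0.17. Of 8 metal-responsive genes, the zinc exporter Slc30a1 and the zinc importer Slc39a10 fell by 0.27 ± 0.07 (adjusted p = 0.039) and 0.34 ± 0.08 (adjusted p = 0.022), and 0 rose. With the random block neither was called (adjusted p = 0.747 and 0.506). Of 12 immediate early genes, which neuronal activity induces, 11 had positive differences (median 0.37). Their mean level was 6.37 to 6.50 in wild-type naive, 6.41 to 6.44 in cbp+/- naive, 6.65 to 7.10 in wild-type vehicle and 6.55 to 7.11 in cbp+/- vehicle arrays, with no overlap. The 1 that passed was Arc, a synaptic protein, at 0.88 ± 0.23 (adjusted p = 0.041; with the random block 0.279). The part of this shift in the members' differences was not tested.

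Novelty was compared with standard housing among injected mice only, 12 arrays against 12, with every array set holding both. For 9 of the 10 genes the difference was positive, as it was for 50.9% of all genes, and for 0 of the 10 did it pass the threshold in limma, where 0.16% of all genes were called. Tsc22d3 had the largest difference: its lowest, median and highest level was 5.97, 6.51 and 6.78 in standard housing and 6.21, 6.78 and 7.44 after novelty. The ranges overlapped, and the difference was 0.31 ± 0.12 (limma, adjusted p = 1.00; ± 0.08 in the fit blocked by array set, adjusted p = 0.103). Sgk1 had a lowest, median and highest level of 8.07, 8.80 and 9.08 in standard housing and 8.58, 8.96 and 9.33 after novelty, a difference of 0.22 ± 0.10 (with the block ± 0.06, adjusted p = 0.156). Fkbp5 had 7.80, 8.10 and 8.34 in standard housing and 8.14, 8.23 and 8.51 after novelty, a difference of 0.19 ± 0.06 (with the block ± 0.05, adjusted p = 0.117). For these 3 genes, and for Hif3a, the difference was positive within each of sets 2, 3 and 4: 0.44, 0.15 and 0.34 for Tsc22d3, 0.25, 0.22 and 0.18 for Sgk1, 0.29, 0.14 and 0.13 for Fkbp5, and 0.23, 0.09 and 0.01 for Hif3a. For Nr3c1 it was negative within each of these sets, from -0.14 to -0.01. The share of all genes with 1 sign in all these sets was not computed. The remaining averaged differences were 0.17 for Mt2, 0.14 for Mt1, 0.13 for Nfkbia, 0.11 for Hif3a, 0.10 for Zbtb16, 0.01 for Ddit4 and -0.06 for Nr3c1.

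The fit with array set as a block, which called 0.481% of all genes for novelty, called 0 of the 10. It called 1 without array set 3, namely Tsc22d3 at 0.39 (limma, adjusted p = 0.011). It called 2 when cbp+/- vehicle replicate 3 or cbp+/- TSA replicate 2 was left out, and 1 when wild-type TSA replicate 2 or wild-type novelty replicate 2 was left out. In single backgrounds, 3 arrays against 3, Tsc22d3 differed by 0.41 in wild type with vehicle, 0.37 in wild type with TSA, 0.14 in cbp+/- mice with vehicle and 0.32 in cbp+/- mice with TSA, and Fkbp5 by 0.21, 0.20, 0.16 and 0.17. In these 4 comparisons 0 of the 10 genes passed in either fit (0.01%, 0.01%, 0% and 0.01% of all genes called without the block). With the block, 0.11%, 0.1%, 0.0752% and 0.0451% of all genes were called.

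By contrast, 11 of 12 immediate early genes rose with novelty in limma, with a median difference of 0.98 and 1.34 ± 0.10 for Fos (adjusted p = 1.5e-07). Of the 28 other glucocorticoid-regulated genes, 24 had positive differences (median 0.12). The 1 that passed was Btg2, an antiproliferative gene that is also on the immediate early list, at 0.55 ± 0.08 (adjusted p = 0.00079). The blocked fit called 6 of 28, all higher, where 0.471% of all genes were called higher. Among these, Dusp1, a phosphatase of MAP kinases that synaptic activity also induces, rose by 0.96 ± 0.10 (adjusted p = 1.8e-06), Klf2 by 0.39 ± 0.07 (adjusted p = 0.005) and Errfi1, a brake on EGF receptor signalling, by 0.36 ± 0.06 (adjusted p = 0.00066). Pdk4, a brake on glucose oxidation, rose by 0.35 ± 0.06 (adjusted p = 0.0015), and Gjb6, a gap junction protein of astrocytes, by 0.27 ± 0.05 (adjusted p = 0.0067).

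**Figure D3:**
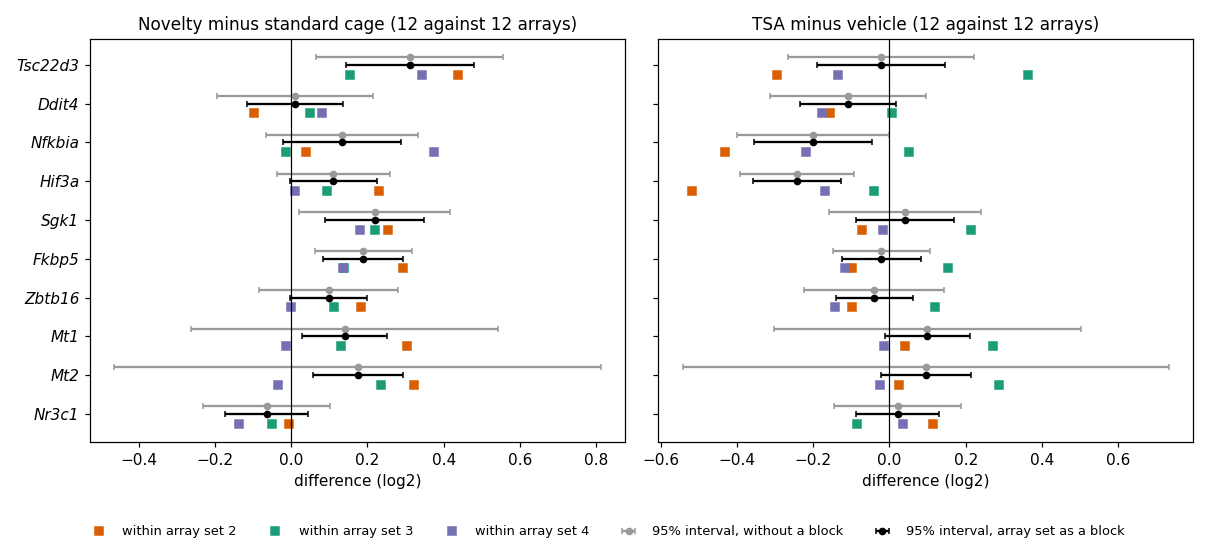
Differences in log2 level of the 10 genes for novelty against standard cage (left) and TSA against vehicle (right), 12 arrays against 12, as points with 95% intervals from the fit without a block (grey) and with array set as a block (black); squares are the differences within array sets 2, 3 and 4. For Hif3a the TSA difference is -0.24 and the set values are -0.52, -0.04 and -0.17.

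TSA was compared with vehicle over both genotypes and housings, again 12 arrays against 12. Without the block 0 of the 10 genes passed the threshold in limma (0.331% of all genes called), and with it 1 did, Hif3a, which fell (4.63% of all genes called, 1.94% called lower). Hif3a had the lowest mean level of the 10 genes, 5.11, at the 35.4th percentile of all genes, and the filter on dim genes left it out. The lowest, median and highest Hif3a level was 4.95, 5.25 and 5.92 without TSA and 4.91, 5.00 and 5.23 with TSA. The ranges overlapped, but the 6 highest arrays were all without TSA. The difference was -0.24 ± 0.07 without the block (adjusted p = 0.233) and -0.24 ± 0.06 with it (adjusted p = 0.011). Within sets 2, 3 and 4 it was -0.52, -0.04 and -0.17, so the sign was shared and the size was not. Without set 2 the blocked difference was -0.10 (adjusted p = 0.394), and without set 4 it was -0.28 (adjusted p = 0.052). Leaving out any 1 of the 24 arrays kept the blocked call, with values from -0.27 to -0.20.

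In wild-type mice after novelty, Hif3a stood at 5.92, 5.36 and 5.31 with vehicle and at 5.11, 5.12 and 4.95 with TSA. The arrays did not overlap, which held for 1 of the 10 genes and 5.76% of all genes, and the difference was -0.47 ± 0.11 with the block (limma, adjusted p = 0.085). In the other backgrounds the difference was -0.17 in wild-type mice in standard cages, -0.27 in cbp+/- mice in standard cages and -0.07 in cbp+/- mice after novelty. In these 4 comparisons 0 of the 10 genes were called with the block, against 0.16% of all genes in wild type after novelty, 0.01% and 0.00502% in wild-type and cbp+/- standard cages and 0.0201% in cbp+/- mice after novelty. Whether TSA acted differently between genotypes was tested directly and not called (0.15 ± 0.11 with the block, adjusted p = 0.961).

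**Figure D4:**
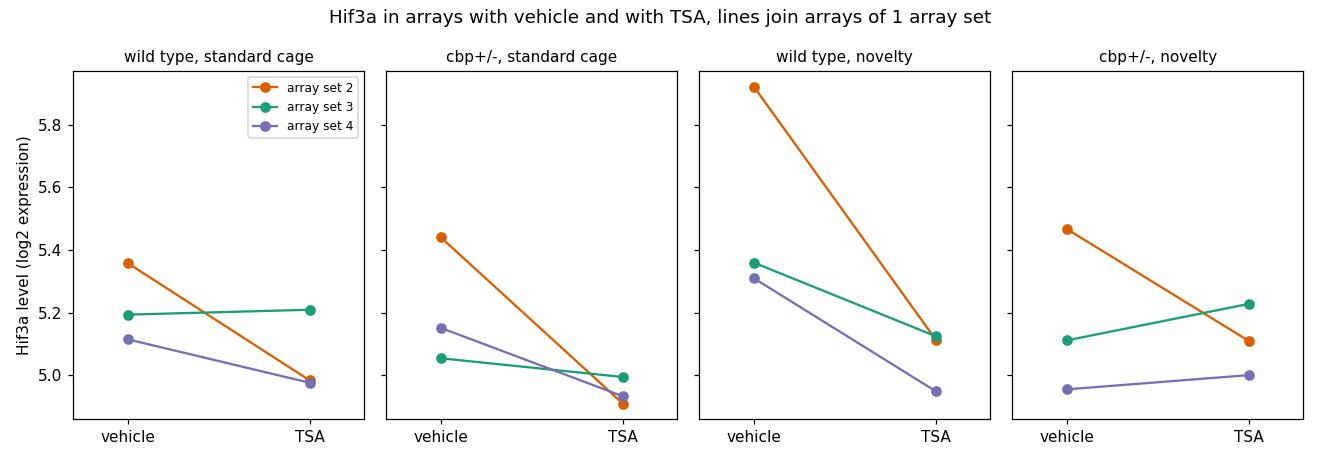
Hif3a log2 level in each vehicle and TSA array of the 4 backgrounds, with lines joining the arrays of 1 array set. The line falls in all 3 sets in wild type after novelty and in cbp+/- standard cages, and the steepest fall of each background is in set 2.

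The other members differed less between TSA and vehicle. Nfkbia had a lowest, median and highest level of 7.33, 7.71 and 8.30 without TSA and 7.30, 7.48 and 7.98 with TSA, a difference of -0.20 ± 0.08 with the block (limma, adjusted p = 0.149), and within sets 2, 3 and 4 it was -0.43, 0.05 and -0.22. Ddit4 differed by -0.11 ± 0.06 with the block, Mt1 and Mt2 by 0.10 each, and the remaining 5 genes by -0.04 to 0.04. Tsc22d3, at -0.02, joined values of -0.30, 0.36 and -0.13 in sets 2, 3 and 4, which do not share a sign. Set 3 was positive for 8 of the 10 genes, all but Hif3a and Nr3c1. Among related genes, the blocked fit called 1 of 12 NF-kappaB pathway genes higher, Nfkbie, a second cytoplasmic inhibitor of that factor, at 0.22 ± 0.05 (adjusted p = 0.0063). It called 1 of 14 genes of the receptor's machinery higher, the chromatin remodeller Chd4, at 0.15 ± 0.04 (adjusted p = 0.024), and 1 of 8 metal-responsive genes lower, Slc39a10, at -0.20 ± 0.04 (adjusted p = 0.0017). It called 0 of 28 other glucocorticoid-regulated genes and 0 of 12 hypoxia-regulated genes.

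Loss of 1 copy of the CBP gene went with small differences in these genes. Averaged over the 5 conditions, 14 arrays against 14, cbp+/- minus wild type was negative for 9 of the 10 genes (of all genes 48.9% were positive) and ran from -0.13 for Tsc22d3 to 0.01 for Fkbp5. Limma called 0 of the 10 without the block, where 0% of all genes were called (475 genes had an unadjusted p under 0.05), and 0 with it, where 0.522% were. The 95% interval with the block was -0.28 to 0.03 for Tsc22d3. In naive arrays Hif3a was 4.64 and 4.59 in wild type against 4.95 and 4.91 in cbp+/- mice and Nr3c1 8.37 and 8.38 against 8.21 and 8.16, differences of 0.31 and -0.19 that were not called (limma, adjusted p = 0.795 and 0.854 with the block). The naive arrays of the genotypes did not overlap for 4 of the 10 genes, against 50.2% of all genes. After novelty with vehicle Hif3a differed the other way, by -0.35, and was not called either. Among the receptor's machinery the blocked fit called Hsd11b1, the enzyme that regenerates active corticosterone inside cells, lower in cbp+/- mice, at -0.23 ± 0.05 (adjusted p = 0.046). Camk1g, a calcium-dependent kinase, was the 1 of 28 other glucocorticoid-regulated genes it called, at -0.28 ± 0.04 (adjusted p = 0.0014). Of 12 hypoxia-regulated genes it called Ndrg1, at -0.18 ± 0.04 (adjusted p = 0.039). The interactions of genotype with novelty, genotype with TSA and novelty with TSA called 0 of the 10 genes and 0% of all genes in either fit.

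With the mean of each array set taken off, the 9 induced genes were compared pair by pair over the 24 injected arrays. All 36 pairs among them had a positive Pearson correlation, from 0.01 for Nfkbia with Mt1 to 0.85 for Mt1 with Mt2, with a median of 0.53. The closest pairs after the metallothioneins were Sgk1 with Fkbp5 and Tsc22d3 with Zbtb16, at 0.79 each. Nr3c1 was negatively correlated with all 9, from -0.53 with Nfkbia to -0.07 with Sgk1. These are descriptions over arrays that share processing and, within a group, treatment, and the group means were not taken off. The shares of positive and negative pairs among all genes were not computed, so how unusual these counts are is not known. Without the centring on sets, several signs turned: Zbtb16 with Mt2 was -0.67 as deposited and 0.61 (0.605 before rounding) after centring. Set 3 had the highest mean of Zbtb16, at 9.47, and, of the injected sets, the lowest of Mt2, at 10.16.

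Among all 19938 genes, the 3 whose centred values were most like those of each gene included further glucocorticoid-regulated genes in some cases. Fkbp5 was most like Mertk, a receptor by which glia take up dead cells, at r = 0.87, then Sgk1 and Ifrd1. Nfkbia was most like Klf15 (0.76), then Wdr4 and 0610040B10Rik. Tsc22d3 was most like Mfsd2a, a lipid transporter of the blood-brain barrier (0.86), then Etnppl and Lrrc8a. Sgk1 was most like Fkbp5 (0.79), Ifrd1 and Tiparp, and Zbtb16 most like Olfr702 (0.83), Prodh and Tsc22d3. Mt1 and Mt2 were each among the other's 3 most alike, with Aff1 at 0.86 and 0.82. Hif3a was most like the row named Mir434 (0.89), Ddit4 most like Lims2 (0.75), and Nr3c1 most like Map4k4 (0.87). With the 2 arrays farthest from the median left out, these leading values were 0.91 for Mertk, 0.63 for Klf15, 0.79 for Mfsd2a, 0.83 for Mir434, 0.54 for Lims2 and 0.82 for Map4k4. Klf15 then lay behind Wdr4 (0.73) for Nfkbia, and Lims2 behind Lgi4 (0.67) and Lypd6b (0.62) for Ddit4. Likewise Olfr702 (0.76) lay just behind Prodh (0.77) for Zbtb16, and Aff1 (0.77) behind Mt2 (0.82) for Mt1. In those 4 cases the leading place among the 3 genes changed. Only the 3 genes picked over all the injected arrays were computed again. Which of all 19938 genes would lead without the 2 arrays was therefore not determined.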

How the data were processed

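Hippocampal RNA was hybridised to 28 Affymetrix Mouse Gene 1.0 ST arrays. The values are log2 levels as the authors deposited them, made with RMA per the submitters' processing notes (a method that corrects background, makes arrays alike and joins the probes of a row) and analysed with GeneSpring GX 11, per the labels' protocols. The genome build of the array annotation is not given in the sources used. Promoter windows are RefSeq's, on GRCm38.p6. RMA makes the distributions of arrays alike, so a shift shared by most genes would not be seen. Of 35556 rows, 21789 had 1 gene symbol in the platform's gene table, 1621 several and 12146 no entry. Where a gene had over 1 row (999 genes), the row with the highest mean was kept. Array precision is limited by the number of arrays.

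Differences were tested in limma 3.58.1 (R 4.3.3), with 1 mean for each of 10 groups, all 28 arrays in 1 fit, naive and vehicle controls apart, two-sided, with Benjamini-Hochberg adjustment over the 19938 genes of a comparison and calls at 0.05. The script was tested on simulated data in which the naive arrays had no set shift of their own. That test therefore cannot show whether injection is told apart from array set. The members, lists and comparisons were chosen with earlier results of these data known. Named genes were all members and, from each list, those with the smallest p in a comparison (up to 6 other glucocorticoid-regulated genes, up to 3 of each other list). For each member the 3 genes with the highest centred correlation were also named or drawn on.

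Whether label replicate numbers pair the samples was checked before any calls were set side by side. Over all genes, TSA and novelty arrays that share a number deviated together from their groups (r from 0.52 to 0.80, 45 pairs), and those that do not had r from -0.63 to -0.07. Vehicle arrays followed another order: their replicates 3, 4 and 5 went with numbers 1, 2 and 3 elsewhere (r from 0.42 to 0.81, 36 pairs), not with their own number (r from -0.59 to -0.29, 12 pairs). The array-set block uses the former. With it the median residual SD fell from 0.179 to 0.125. As the sets were found in the tested values, the fit without a block is the main one. Alternatives were the array-set block, also without each set, the label number as a replicate block, only the compared arrays, merged controls, an intensity trend, array weights, repeated quantile normalization, a filter on dim genes, mean rows, no arrays high in choroid plexus markers, each array left out, and, added after seeing the data, a random block and the blocked fits with each array left out.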

Additional observations from a re-analysis of the deposited data

How the results depend on the processing

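A tally was kept of the members' differences in the averaged comparisons and of the members called there with the array-set block. Of 485 such values, 425 kept their direction and their side of the threshold under alternatives other than leaving out 1 array. With 1 array left out, 845 of 932 did. A count was taken as kept within 1.5 times. The tally holds none of the other counts below and no result of a single background. For those that did not, the cause was not tested. The label replicate block sets vehicle replicate 3 beside replicate 3 elsewhere, an array of another set (r from -0.59 to -0.29, 12 pairs). All values given with that block rest on this pairing. Counts are of genes with adjusted p under 0.05 in limma.

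For vehicle against naive arrays, the 4 members called became 7 with array weights, 0 without the arrays high in choroid plexus markers and 0 with a random block. The 480 genes called became 7176 with the label number as a replicate block, 301 with a trend, 2805 with weights, 236 without the choroid-high arrays and 2 with the random block. With 1 array left out the members called ran from 0 to 5 and the genes from 112 to 451. In single genotypes, the 0 members called became 9 with the label replicate block, 5 with weights and 1 with quantile normalization. The 78 genes became 12414, 2660 with weights, 16 with a trend, 46 without choroid-high arrays, 1 with the random block and 0 with only the compared arrays, and ran from 0 to 81 with 1 array left out.

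For novelty, the 0 members called became 3 with the label replicate block and 1 with the array-set block without set 3. The blocked count of 0 also became 1 without set 3, and ran from 0 to 2 with 1 array left out. The 32 genes became 96 with the array-set block (69, 74 and 73 without sets 2, 3 and 4) and 3604 with the label block, and ran from 24 to 32. In single backgrounds the label block called 1 member. The 6 genes there became 16 with merged controls, 66 with the array-set block, 7515 with the label block, 11 with weights, 3 without dim genes and 0 with only the compared arrays, and ran from 4 to 8.

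For TSA, the 0 members called became 1 with the array-set block, 1 with it and without set 3, and 2 with the label replicate block. The blocked count of 1 became 0 without set 2 and 0 without set 4. The 66 genes became 132 with merged controls, 924 with the array-set block (251, 358 and 587 without sets 2, 3 and 4), 3494 with the label block and 124 with weights, and ran from 49 to 86. In single backgrounds the label block called 4 members, and the 0 genes became 39 with the array-set block, 6764 with the label block and 17 with weights, and ran from 0 to 1.

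For genotype, the 0 genes called became 104 with the array-set block (46, 50 and 34 without sets 2, 3 and 4), 34 with the label replicate block, 9 with weights and 2 with quantile normalization, and ran from 0 to 2. In single conditions they became 1 with the array-set block and 249 with weights. For the interactions they became 3753 with the label block.

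Differences that changed sign were all uncalled. With the label replicate block they were 0.0200 for Nr3c1 between vehicle and naive arrays. For novelty they were -0.174 for Ddit4, -0.0429 for Hif3a and -0.0491 for Zbtb16. For TSA they were 0.0288 for Tsc22d3, -0.0686 for Sgk1, 0.0221 for Fkbp5 and -0.0663 for Nr3c1. With merged controls the TSA differences were 0.129 for Tsc22d3, 0.0237 for Ddit4, 0.0493 for Fkbp5, 0.0449 for Zbtb16 and -0.0300 for Nr3c1. Without choroid-high arrays they were 0.0518 for Tsc22d3, 0.0075 for Fkbp5 and -0.0069 for Nr3c1. Blocked TSA differences were 0.114 for Tsc22d3, 0.0178 for Fkbp5 and -0.0255 for Nr3c1 without set 2, and -0.0453 for Sgk1 without set 3. Without set 4 they were 0.0335 for Tsc22d3, 0.0272 for Fkbp5 and 0.0107 for Zbtb16. Blocked novelty differences of Ddit4 were -0.0084 without set 3 and -0.0244 without set 4. Blocked genotype differences were -0.0220 for Fkbp5 without set 3 and 0.0825 for Ddit4 and 0.0383 for Nfkbia without set 4, and with weights 0.0087 for Hif3a. With 1 array left out, novelty gave -0.0301 to 0.0683 for Ddit4. TSA gave -0.0941 to 0.0405 for Tsc22d3, -0.0265 to 0.10 for Sgk1, -0.052 to 0.0113 for Fkbp5, -0.0795 to 0.0036 for Zbtb16, -0.049 to 0.22 for Mt2 and -0.0316 to 0.0566 for Nr3c1. Genotype gave -0.0637 to 0.0146 for Ddit4, -0.0504 to 0.0177 for Hif3a, -0.013 to 0.0377 for Fkbp5 and -0.16 to 0.0576 for Mt2.

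The dim-gene filter left out Hif3a, whose mean level lies at the 35.4th percentile of all genes. No planned setting separates injection from array set.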
